A study of Homo sapiens with 12 samples.

Results

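The 5 long non-coding RNAs KCNQ1OT1, MALAT1, NEAT1, OIP5-AS1 and NORAD were examined among the 19251 genes measured by RNA sequencing in 2 human ovarian cancer cell lines. They were taken by name and chosen by measured values: the level of KCNQ1OT1 had been seen to differ between replicate TOV21G libraries. The spread and the shared variation in that line are therefore described below and support no test. CAOV3 is labelled as epithelial high grade serous and TOV21G as epithelial clear, and both are given as genotype WT and tissue ovary. Each line was represented by 3 untreated libraries (control) and 3 libraries from cells kept for 16 h in medium with 10% ovarian cancer ascites, a fluid of the abdominal cavity. Controls and treated cells of both lines grew in the same serum-containing medium. The labels name no donor of the ascites and no fluid added to the control wells, so a response to ascites and a response to any added fluid cannot be told apart. Each line stands for 1 tumour. Nothing in the labels says that the 3 libraries of a group came from separate cultures, so the p-values measure only the spread between these libraries.

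Long non-coding RNAs are transcripts with no known protein product, and several act where they are made. KCNQ1OT1 is an imprinted transcript made from the paternal allele, antisense to the potassium channel gene KCNQ1, and is known for silencing neighbouring genes on that allele. MALAT1 is an abundant RNA of nuclear speckles, the nuclear bodies rich in splicing factors, and NEAT1 is the scaffold on which paraspeckles assemble. OIP5-AS1, also called cyrano, carries a site for the microRNA miR-7, and NORAD is a mostly cytoplasmic RNA with many binding sites for Pumilio proteins, which repress messenger RNAs. The set was proposed as nuclear-retained RNAs, a name that does not suit NORAD and suits OIP5-AS1 only in part. RNA came from whole cells, so the place of each RNA in the cell was not measured.

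MALAT1 and NEAT1 lie next to each other on chromosome 11 and end in the same way. MALAT1 (ENSG00000251562) spans chr11:65497688-65506516 and NEAT1 (ENSG00000245532) chr11:65422774-65445540, both on the plus strand in GENCODE release 29 on GRCh38, which is used for all positions here. The ends of these transcripts are shown because they are known to fold into a triple helix that protects RNAs lacking an ordinary poly(A) tail, which bears on how such RNAs are captured and counted. Capitals mark the 2 U-rich stretches and the A-rich stretch, written with T for U.
MALAT1 end, chr11:65506031-65506116, plus strand: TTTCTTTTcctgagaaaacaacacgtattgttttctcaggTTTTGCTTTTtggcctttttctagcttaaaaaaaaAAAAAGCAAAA
NEAT1 end, chr11:65445453-65445540, plus strand: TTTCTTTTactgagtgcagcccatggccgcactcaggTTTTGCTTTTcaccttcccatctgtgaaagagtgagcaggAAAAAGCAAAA
The order TTTCTTTT, TTTTGCTTTT, AAAAAGCAAAA, with gaps of up to 60 bases, was read off these sequences and then searched on the transcript strand. It occurred in 2 of 206534 annotated transcripts, these 2. An annotated small RNA begins at position 65506117, the base after the printed MALAT1 end, and the printed NEAT1 end is the last base of the gene. The short and the long form of NEAT1 share their start, and the deposited gene-level values cannot separate them.

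NORAD (ENSG00000260032) is a transcript of 1 exon and 5339 bases at chr20:36045622-36050960 on the minus strand. It is shown by the 3 places where Pumilio motifs stand closest together, with the motif TGTANATA in capitals.
NORAD site 1, chr20:36049496-36049525, minus strand: tatctgTGTATATAgTGTACATAaaggaca
NORAD site 2, chr20:36048299-36048328, minus strand: ctatacTGTATATAtTGTATATAtaacgga
NORAD site 3, chr20:36047663-36047692, minus strand: gtgctgTGTATATAgTGTATATAagcggac
TGTANATA was found 15 times on the transcript strand of NORAD, at 2.81 per kilobase. Among 4493 annotated transcripts of 4800 to 5900 bases the median was 0, and 0.0668% held at least 15. MALAT1 held 0, OIP5-AS1 1, NEAT1 6 and the far longer KCNQ1OT1 9.

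OIP5-AS1 (ENSG00000247556) spans chr15:41283990-41309737 on the plus strand, and the transcript used here has 4 exons and 8829 bases. Its miR-7 site is shown beside the microRNA (RefSeq, GRCh38.p14), because this near-complete pairing is the best known feature of the RNA. Capitals mark the bases of the site that pair with the microRNA, and in the microRNA the seed, bases 2 to 8.
OIP5-AS1 site, chr15:41300570-41300599, plus strand: taagAACAACAAAATCACcaatGTCTTCCa
miR-7-5p: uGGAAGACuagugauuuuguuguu
The seed match GTCTTCC occurred 3 times on the OIP5-AS1 transcript strand, and 50.3% of 1299 annotated transcripts of 8000 to 10000 bases held it. The further stretch of 14 pairing bases, AACAACAAAATCAC, joined to a seed match as printed was in 2 annotated transcripts.

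KCNQ1OT1 (ENSG00000269821) is a single exon of 91667 bases at chr11:2608328-2699994 on the minus strand, inside the KCNQ1 gene on the opposite strand. DNA methylation was not measured, so allele use is not known from these data. KCNQ1 itself, whose reads could mix with those of KCNQ1OT1 if strand was ignored, had 0 to 3.40 normalised counts in CAOV3 and 4.47 to 11.5 in TOV21G. These values do not show how many reads from KCNQ1 introns entered the KCNQ1OT1 counts, which was not tested. OIP5-AS1 overlaps the last part of OIP5, which lies on the opposite strand, and AC087721.2 on the same strand. OIP5 had 931 to 1070.5 normalised counts in CAOV3 and 721 to 879 in TOV21G. Whether counting used strand is not given in the sources used here. The KCNQ1OT1 and OIP5-AS1 values are therefore uncertain to the extent that overlapping genes share reads.

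Each value is the authors' normalised read count, a number of reads divided by a factor for the library. The recovered reads numbered 26697609 to 34491304 per library, over 18153 to 18426 genes with any read. Marker genes matched the labelled lines in part. KRT8, an epithelial keratin, was at 66099 to 83756 in CAOV3 and 4585 to 5671 in TOV21G. PAX8, a transcription factor of Muellerian epithelium, was at 6797 to 9342 in TOV21G but only 18.2 to 25.6 in CAOV3, although it is a usual serous marker, and its TOV21G values were higher in ascites by edgeR and DESeq2 but not called by limma. Of 7 leukocyte markers 2 were listed, CD14 at 8.39 to 89.3 and LYZ at 0 to 50.5, neither called after ascites in either line by limma, edgeR or DESeq2. Among the listed markers of mesothelial cells, fibroblasts and endothelium, limma called 1 after ascites in CAOV3, COL1A2 of fibroblasts. Its means were 2.46 and 0.365, near 0, and it passed the low-value filter only through TOV21G. DESeq2 called 1 fibroblast gene in TOV21G, where it called 151 of 14200 genes. Of 6 epithelial markers 2 rose in CAOV3 by limma, KRT8 and KRT18, where limma called 1.73% of all genes. EdgeR and DESeq2 each called 4 of these markers, where they called 511 of 17616 and 507 of 13859 genes. Their part in the results below was not tested. Changes in the number of cells and in RNA per cell cannot be told apart in bulk samples.

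KCNQ1OT1 was the least even of the 5 in TOV21G. Its CAOV3 control libraries 1, 2 and 3 had 813, 749 and 697 normalised counts, and its CAOV3 ascites libraries 638, 792 and 614. In TOV21G the control libraries had 95.4, 656 and 234, and the ascites libraries 731, 235 and 1511. The lowest TOV21G library was an untreated one and the highest an ascites one, but the third-lowest was an ascites library and the third-highest a control, so the treatment groups overlapped. The highest library exceeded the lowest 15.8-fold in TOV21G and 1.32-fold in CAOV3. Behind the lowest value stood 88 reads and behind the highest 1689, so counting error is small beside this range.

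MALAT1 followed the same library order in TOV21G at its extremes. It had 21171, 20402 and 19620 normalised counts in the CAOV3 controls and 21344, 22325 and 19062 after ascites in that line. In TOV21G it had 14363, 36224 and 22591 in the controls and 37574, 21436 and 66860 after ascites. Control 1 was again lowest and ascites 3 highest, the groups overlapped, and the range was 4.65-fold in TOV21G against 1.17-fold in CAOV3. MALAT1 alone took 0.0481% of all normalised counts in TOV21G control 1 and 0.241% in TOV21G ascites 3, against 0.0616% to 0.0727% in the CAOV3 libraries.

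NEAT1 spread less widely, with the same libraries at the ends. Controls of CAOV3 had 4452, 4395 and 4409 normalised counts, against 4343, 4647 and 4519 with ascites. Controls of TOV21G had 2771, 5628 and 3846, against 5573, 4110 and 7871 with ascites. Its range was 2.84-fold in TOV21G and 1.07-fold in CAOV3, and control and ascites libraries overlapped in both lines.

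The other members were even. OIP5-AS1 had 3675, 3561 and 3762 normalised counts in the CAOV3 controls and 3324, 3445 and 3374 in the CAOV3 ascites libraries. It had 2728, 2806 and 2929 in the TOV21G controls and 2804, 2747 and 2680 in the TOV21G ascites libraries. All 3 CAOV3 ascites libraries lay below the CAOV3 controls, while the TOV21G groups overlapped. NORAD had 15447, 15475 and 16688 normalised counts in the CAOV3 controls and 15265, 15342 and 15137 in the CAOV3 ascites libraries. It had 5903, 6203 and 6222 in the TOV21G controls and 6291, 6313 and 6359 in the TOV21G ascites libraries. NORAD in ascites therefore lay below every control in CAOV3 and above every control in TOV21G, by small amounts that are tested below. The TOV21G range was 1.09-fold for OIP5-AS1 and 1.08-fold for NORAD, so the same libraries that differed most in KCNQ1OT1 were nearly alike in these RNAs.

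**Figure D1:**
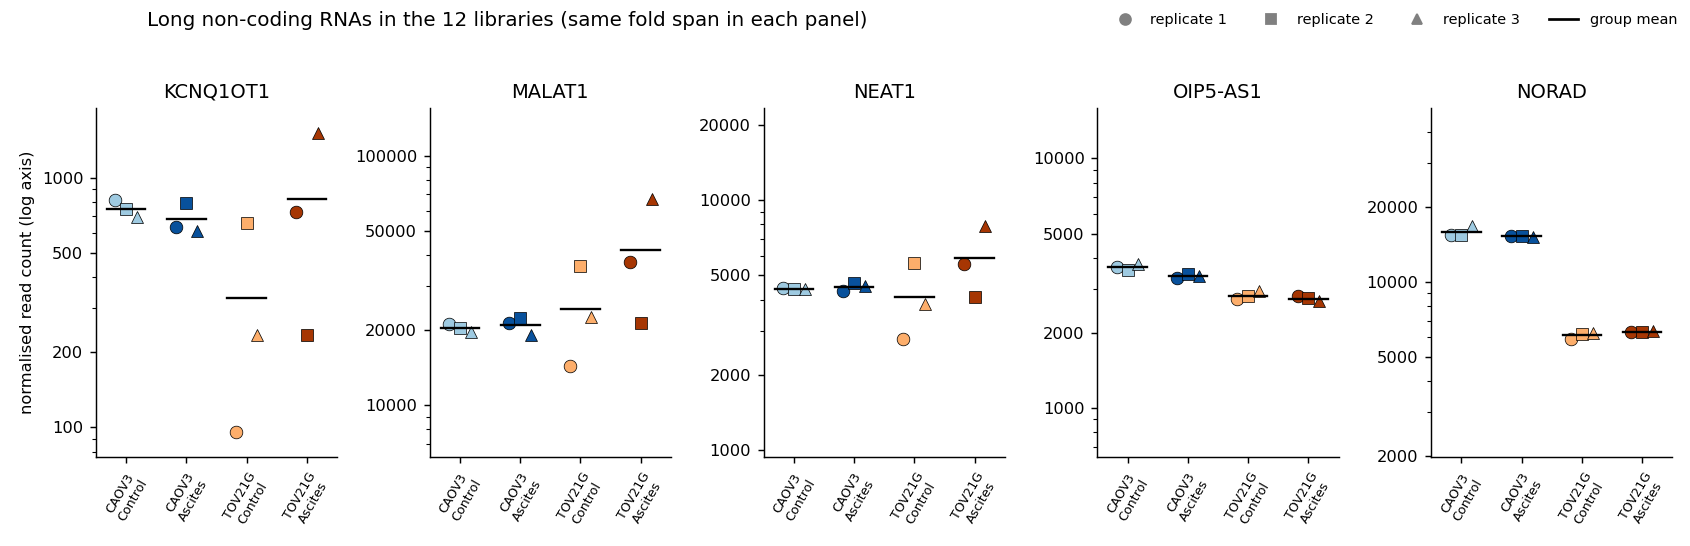
Normalised read count of each RNA (vertical log axis, the same fold span in every panel) in the 3 libraries of each group (points, shape for the replicate number), with the group mean as a bar. The TOV21G points of KCNQ1OT1 run from 95.4 to 1511 and those of MALAT1 from 14363 to 66860, while OIP5-AS1 and NORAD lie flat within each line.

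Levels between these RNAs can be compared only per length, here as the mean normalised count per kilobase of annotated exon. In CAOV3 the order was NORAD at 2914, MALAT1 at 2339, OIP5-AS1 at 278, NEAT1 at 196 and KCNQ1OT1 at 7.82 per kilobase, each mean over 6 libraries, and no neighbours in that order overlapped in range. TOV21G put MALAT1 first at 3757 per kilobase, with a range of 1627 to 7573, above NORAD at 1164. OIP5-AS1 at 220 and NEAT1 at 218 per kilobase could not be ordered there, since NEAT1 ranged from 122 to 346 and OIP5-AS1 from 211 to 231. KCNQ1OT1 was lowest again at 6.30 per kilobase, with a range of 1.04 to 16.5. A mean over all of its 91667 bases assumes even coverage, which was not examined.

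The spread was set beside that of all other genes as a description, since it chose the members. The within-group SD of log2(value + 1), pooled over the control and ascites groups of a line, was 1.37 for KCNQ1OT1 in TOV21G, rank 1 of the 12376 genes with a mean value of at least 50. MALAT1 at 0.748 ranked 20 and NEAT1 at 0.491 ranked 103. OIP5-AS1 at 0.0433 ranked 11020 and NORAD at 0.0307 ranked 11893, both below the all-gene median of 0.0866. In CAOV3 the SD was 0.161 for KCNQ1OT1, rank 1341 of 12456, then 0.0917 for MALAT1, 0.0455 for NORAD, 0.0354 for NEAT1 and 0.0334 for OIP5-AS1, around an all-gene median of 0.0644. Thus KCNQ1OT1 was the least even of the 5 in either line, while NEAT1 was among the even RNAs in CAOV3 and among the uneven ones in TOV21G. Some of these small values rest on 1 library: without CAOV3 control 3 the SD of NORAD in CAOV3 was 0.00808, and without TOV21G control 1 it was 0.00666 in TOV21G.

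**Figure D2:**
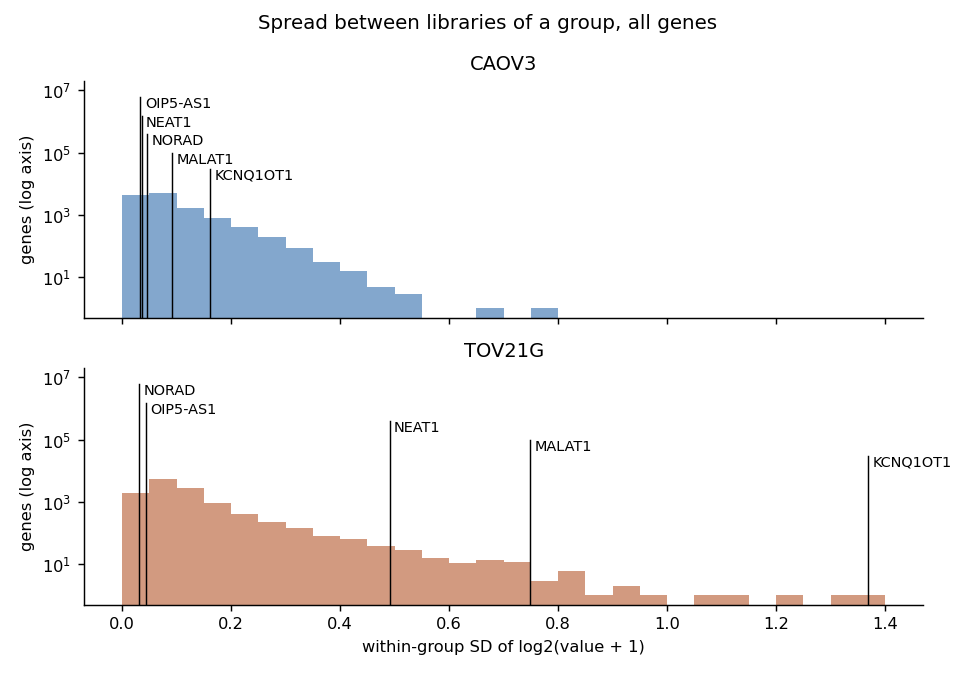
Number of genes (vertical log axis) by within-group SD of log2(value + 1) in CAOV3 (top) and TOV21G (bottom), in bins of 0.05, with a line at each of the 5 RNAs. KCNQ1OT1 stands at 1.37 at the far end in TOV21G and at 0.161 in CAOV3, while NORAD and OIP5-AS1 stay at the low end in both.

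Within TOV21G the uneven RNAs moved together. Relative to the mean of its own group, KCNQ1OT1 lay at -1.35, 1.42 and -0.07 in the controls and at 0.20, -1.44 and 1.24 in the ascites libraries, on the log2 scale. MALAT1 lay at -0.66, 0.67 and -0.01 in the controls and at -0.01, -0.82 and 0.82 in the ascites libraries. NEAT1 lay at -0.50, 0.52 and -0.03 in the controls and at -0.02, -0.46 and 0.48 in the ascites libraries. Thus control 1 and ascites 2 were low, control 2 and ascites 3 high and the remaining pair near the mean for all 3 RNAs, and the pattern crossed the treatment groups. No replicate number was high or low throughout, as replicate 2 was high in the controls and low in ascites.

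In CAOV3 KCNQ1OT1 and MALAT1 also moved together, within a far smaller range. KCNQ1OT1 lay at 0.11, -0.0048 and -0.11 in the CAOV3 controls and at -0.086, 0.23 and -0.14 in the ascites libraries, on the log2 scale. MALAT1 lay at 0.054, 0.0010 and -0.055 in the controls and at 0.033, 0.098 and -0.13 in the ascites libraries. Control 1 and ascites 2 were high and control 3 and ascites 3 low for both RNAs, while ascites 1 was below the mean in KCNQ1OT1 and above it in MALAT1. The CAOV3 slope of MALAT1 on KCNQ1OT1 was 0.48 (0.30 without ascites 3 to 0.64 without ascites 2), close to the 0.54 of TOV21G given next. For NEAT1 it was 0.15, and 0.0014 without ascites 2. With so little movement in KCNQ1OT1 these slopes are loose: over all genes in CAOV3 the 5th to 95th percentiles were -0.57 and 0.48.

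The TOV21G movements differed in size. Per unit of log2 change in KCNQ1OT1, MALAT1 changed by 0.54 and NEAT1 by 0.36, and the SD left around those lines was 0.131 for MALAT1 and 0.0655 for NEAT1. OIP5-AS1 changed by 0.0016 and NORAD by 0.01, against an all-gene median of -0.03 and a 5th to 95th percentile range of -0.09 to 0.13. With TMM scaling in place of the deposited scaling the slopes were 0.55, 0.37, 0.02 and 0.03, in the order MALAT1, NEAT1, OIP5-AS1, NORAD. All points share their libraries, so these slopes describe 6 libraries and carry no test. The ratio of MALAT1 to KCNQ1OT1 shows the unequal sizes: it was 26.1 to 33.5 in CAOV3, but 151 in TOV21G control 1 and 44.2 in TOV21G ascites 3. NEAT1 stood at 0.118 to 0.193 of MALAT1 in TOV21G and at 0.203 to 0.237 in CAOV3.

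**Figure D3:**
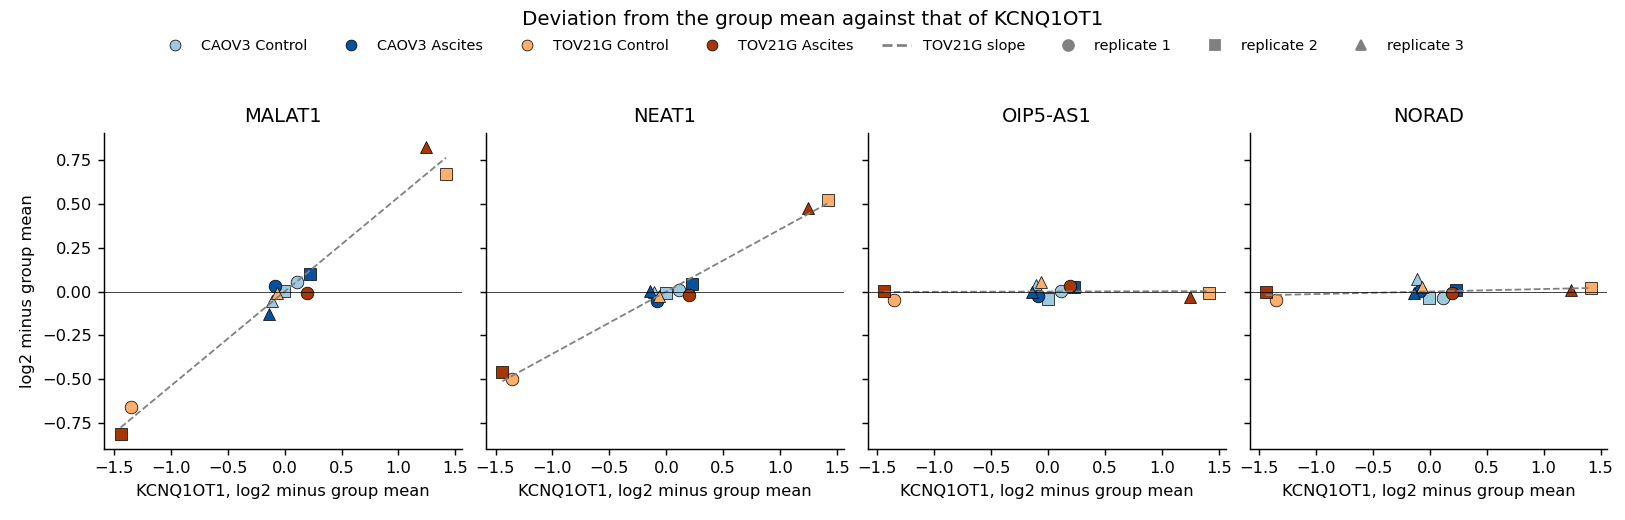
Log2 value minus the group mean of MALAT1, NEAT1, OIP5-AS1 and NORAD (vertical axes) against the same quantity of KCNQ1OT1 (horizontal axes) in the 12 libraries, coloured by group, with the TOV21G slope as a dashed line. TOV21G libraries lie along slopes of 0.54 for MALAT1 and 0.36 for NEAT1 and flat for the others, and CAOV3 libraries lie near 0, with a slope of 0.48 for MALAT1 that the small range hides.

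Ascites against control was tested in a limma fit over all 17616 genes above a low-value filter, which all 5 members passed. In TOV21G the fit called 0.409% of the genes at an adjusted p under 0.05 (0.142% higher and 0.267% lower) and 0 of the 5 RNAs. KCNQ1OT1 was 1.38 higher in ascites on the log2 scale (SE 0.63, 95% interval 0.01 to 2.74), with means of 826 ± 644 in ascites and 329 ± 292 in controls (SD, n = 3 each), and limma's adjusted p was 0.540. MALAT1 was 0.73 higher (SE 0.35, interval -0.02 to 1.48), with means of 41957 ± 23027 and 24393 ± 11041, at an adjusted p of 0.556 by limma. NEAT1 was 0.53 higher (SE 0.23, interval 0.04 to 1.02), with means of 5852 ± 1896 and 4082 ± 1443, at an adjusted p of 0.502 by limma. At an unadjusted p under 0.05, 2 of the 5 passed, KCNQ1OT1 (limma p 0.0479) and NEAT1 (limma p 0.0360), where 9.17% of all genes did. KCNQ1OT1 was chosen for its values in these same TOV21G libraries and NEAT1 followed it there. The 2 are therefore not independent, and their number is not evidence of an excess. For KCNQ1OT1, MALAT1 and NEAT1 these intervals and p-values carry the smaller spread of CAOV3, since 1 error per gene is shared by both lines. With TOV21G fitted alone the SE was 0.69 for KCNQ1OT1, 0.38 for MALAT1 and 0.25 for NEAT1. Limma's adjusted p was then 0.763 for each of them. EdgeR and DESeq2 also called 0 of the 5 after adjustment. None of these differences was larger than the replicate error at the adjusted threshold, and intervals this wide also hold changes of over 1 log2 unit for KCNQ1OT1, MALAT1 and NEAT1.

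The even RNAs gave narrow intervals in TOV21G. OIP5-AS1 changed by -0.04 (SE 0.04, interval -0.12 to 0.04, limma's adjusted p 0.758), with means of 2744 ± 62.2 and 2821 ± 101. NORAD changed by 0.05 (SE 0.04, interval -0.04 to 0.14, limma's adjusted p 0.713), with means of 6321 ± 34.5 and 6110 ± 179. The ascites libraries of 1 of the 5, NORAD, did not overlap the controls, as was so for 11.1% of all tested genes.

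Some TOV21G values rested on single libraries. Leaving out 1 library at a time moved KCNQ1OT1 between 0.70 (without control 1) and 2.10 (without ascites 2), MALAT1 between 0.32 (without ascites 3) and 1.14 (without ascites 2), and NEAT1 between 0.28 (without control 1) and 0.79 (without control 2). Without both control 1 and ascites 3 the differences were 0.08 for KCNQ1OT1, -0.011 for MALAT1 and 0.04 for NEAT1. Those 2 libraries were picked as the lowest and the highest, which lowers a difference by construction. When the KCNQ1OT1 level was made a covariate, the ascites difference was -0.011 for MALAT1, 0.04 for NEAT1, -0.04 for OIP5-AS1 and 0.03 for NORAD. KCNQ1OT1 was chosen for its TOV21G values and itself differed by 1.38 between these groups, so the covariate takes that difference out of RNAs that follow it by construction, and these values are a description. Both alternatives were chosen after seeing the data. Weighting the libraries by their estimated precision turned the calls: KCNQ1OT1 was 1.55 higher (limma's adjusted p 0.00794), MALAT1 0.71 (0.0169) and NEAT1 0.51 (0.0120). That fit gave TOV21G ascites 1 a weight of 10.5 and the other TOV21G libraries 0.360 to 2.25, called 3390 genes, and its weight estimation stopped before it converged.

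In CAOV3 the fit called 1.73% of all genes (0.636% higher and 1.10% lower) and again 0 of the 5 RNAs. KCNQ1OT1 changed by -0.15 (SE 0.63, interval -1.51 to 1.21, limma's adjusted p 0.974), with means of 681 ± 96.9 in ascites and 753 ± 58.0 in controls. MALAT1 changed by 0.03 (interval -0.71 to 0.78) and NEAT1 by 0.03 (interval -0.46 to 0.52). These intervals carry the spread of TOV21G, since 1 error per gene is shared by all 12 libraries. With CAOV3 fitted alone, limma's adjusted p was 0.259 for KCNQ1OT1, 0.722 for MALAT1 and 0.724 for NEAT1.

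OIP5-AS1 gave the most regular difference in CAOV3. Its log2 difference was -0.12 (SE 0.04, interval -0.20 to -0.03), between means of 3381 ± 60.4 in ascites and 3666 ± 100 in controls (SD, n = 3 each). Limma's adjusted p was 0.189 in the fit over both lines and 0.0454 with CAOV3 fitted alone, while edgeR gave 0.159 and DESeq2 0.158. NORAD changed by -0.06 (SE 0.04, interval -0.14 to 0.03, limma's adjusted p 0.608), with means of 15248 ± 104 and 15870 ± 708, and by -0.02 without control 3. The ascites libraries of 2 of the 5, OIP5-AS1 and NORAD, did not overlap the controls, as was so for 24.2% of all tested genes. At an unadjusted p under 0.05, 1 of the 5 passed, OIP5-AS1 (limma p 0.00921), where 12.9% of all genes did, and edgeR and DESeq2 called 0 of the 5 after adjustment.

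The difference between the lines in their ascites response was tested directly. It was called for 0.545% of all genes (0.238% higher and 0.307% lower) and for 0 of the 5 RNAs, by limma, edgeR and DESeq2 alike, and 0 of the 5 had an unadjusted p under 0.05, against 11.9% of genes. TOV21G minus CAOV3 was 1.53 for KCNQ1OT1 (interval -0.40 to 3.45, limma's adjusted p 0.504), 0.70 for MALAT1 (0.566), 0.50 for NEAT1 (0.533), 0.08 for OIP5-AS1 (0.567) and 0.11 for NORAD (0.475). A difference between the responses of the lines was therefore not shown for any of the 5, nor shown to be absent. With library weights KCNQ1OT1 passed, at 1.74 (limma's adjusted p 0.0463). That fit called 1794 of 17616 genes for this difference, and its weight estimation stopped before it converged.

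**Figure D4:**
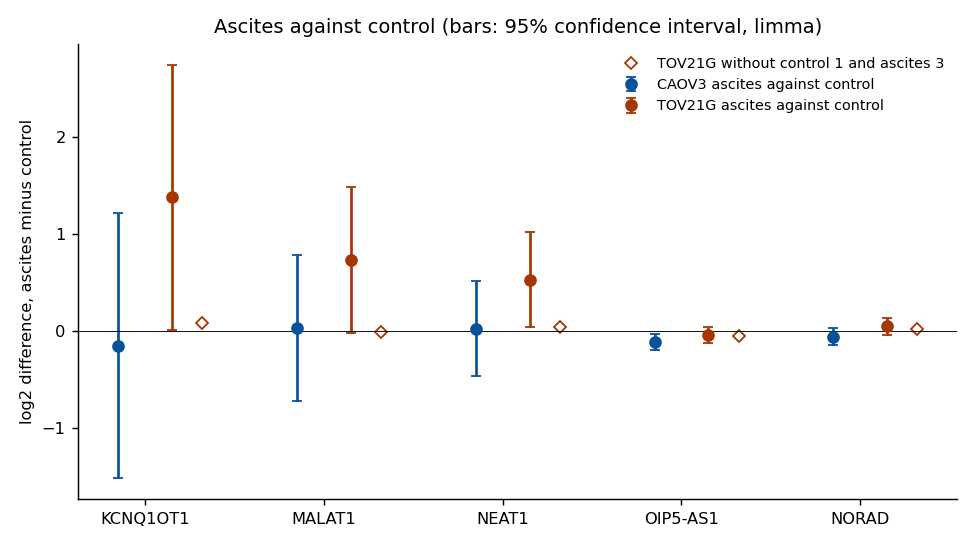
Log2 difference of each RNA, ascites minus control (vertical axis), in CAOV3 and TOV21G, with the 95% interval from the limma fit over both lines. Open diamonds give TOV21G without control 1 and ascites 3. KCNQ1OT1 in TOV21G stands at 1.38 with an interval of 0.01 to 2.74 and falls to 0.08 without those 2 libraries, while OIP5-AS1 and NORAD have short intervals near 0.

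Between the untreated lines the even RNAs differed, while MALAT1 and NEAT1 could not be ordered. NORAD was lower in TOV21G than in CAOV3 controls by 1.38 on the log2 scale, a difference of -1.38 (SE 0.04, limma's adjusted p 8.92e-13) between 6110 ± 179 and 15870 ± 708. OIP5-AS1 differed by -0.38 (SE 0.04, limma's adjusted p 5.27e-07), between 2821 ± 101 and 3666 ± 100. Both were called, as were 82.2% of all genes (40.8% higher and 41.4% lower in TOV21G), and 83.0% had an unadjusted p under 0.05. MALAT1 at 0.16 (SE 0.35, limma's adjusted p 0.682) and NEAT1 at -0.17 (SE 0.23, limma's adjusted p 0.483) were within the error. Leaving out a single TOV21G control moved MALAT1 from -0.18 (without control 2) to 0.49 (without control 1), and NEAT1 from -0.44 (without control 2) to 0.07 (without control 1). KCNQ1OT1 stood at 329 ± 292 in TOV21G and 753 ± 58.0 in CAOV3 controls, a difference of -1.61 that is given without a test because the gene was chosen for how its TOV21G libraries vary. All 3 TOV21G control libraries of KCNQ1OT1, OIP5-AS1 and NORAD lay below the CAOV3 controls, and the groups did not overlap for 82.6% of all genes.

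Known partners of these RNAs showed little of the KCNQ1OT1 pattern. Slopes in this and the following paragraphs are TOV21G log2 changes per unit of log2 change in KCNQ1OT1, over 6 libraries, for genes with a mean value of at least 50. The 16 paraspeckle proteins had a median slope of -0.02 (0.0021 with TMM scaling) and a highest slope of 0.01, against 0.36 for NEAT1. NONO and SFPQ, core proteins of the paraspeckle, had slopes of -0.05 and 0.01. The 11 nuclear speckle proteins had a median of -0.02 (0.0053 with TMM), but SRRM2, a scaffold of the speckle, stood at 0.21. SRRM2 had 15194, 25206 and 21996 normalised counts in the TOV21G controls and 25583, 20074 and 26911 in the ascites libraries, so control 1 was lowest and ascites 3 highest, as for MALAT1. SON, the other speckle scaffold, had a slope of 0.06.

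After ascites, limma called 1.73% of all genes in CAOV3 and 0.409% in TOV21G. It called 0 of the 16 paraspeckle and 0 of the 11 speckle genes in either line. In TOV21G their median log2 differences were -0.01 and 0.02, against -0.02 for all genes. Of the listed genes 0 had an unadjusted p under 0.05 there, against 9.17% of all genes, and edgeR and DESeq2 called 0. The smallest adjusted p there belonged to NONO (limma, 0.612) and SRRM2 (limma, 0.636). In CAOV3 the smallest adjusted p of the speckle genes belonged to the splicing factor gene SRSF7 (limma, 0.135). In CAOV3 1 gene of each list had an unadjusted p under 0.05, against 12.9% of all genes. There edgeR called 0 paraspeckle and 1 speckle gene, against 511 of 17616 genes, and DESeq2 1 of each, against 507 of 13859. The CAOV3 medians were 0.02 and 0.06, against -0.0021 for all genes.

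The 12 other RNA-binding and chromatin partners, among them the NORAD partner PUM2, had a median slope of -0.0038 (0.02 with TMM) and none above 0.02. The 6 Pumilio targets of cell division had a median of -0.04, and CDKN1B, a cell cycle inhibitor, was at -0.05. NORAD's own slope was 0.01. Limma, edgeR and DESeq2 each called 0 of these 18 genes after ascites in either line. For limma this stood against 1.73% of all genes in CAOV3 and 0.409% in TOV21G. An unadjusted p under 0.05 was found for 0 of the 18 in TOV21G (9.17% of all genes) and 1 from each list in CAOV3 (12.9%). Smallest adjusted p-values by limma were 0.616 for SUZ12 and 0.655 for CDKN1B in TOV21G, and 0.242 for EED and 0.246 for MAD2L1 in CAOV3.

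Genes around KCNQ1OT1 had low slopes. Of 8 genes of the KCNQ1 domain with sufficient values, 0 had a positive slope, around a median of -0.07 (-0.04 with TMM). Among all genes 29.8% had one, around a median of -0.03. Among protein-coding genes the share went with exon length, from 9.33% in the shortest group to 57.8% in the longest. Which length groups the domain genes belong to was not examined. Whether the domain differs from other genes of like length was not tested. CDKN1C, an imprinted cell cycle inhibitor of that domain, had the lowest slope at -0.13, with 111, 97.5 and 110.4 normalised counts in the TOV21G controls and 70.4, 98.2 and 69.8 in ascites. Its low values were those of ascites 1 and 3, and its control values were alike although KCNQ1OT1 ranged 6.88-fold among them. PHLDA2, another imprinted gene there, had a slope of -0.08. Limma called 0 of the 9 tested domain genes after ascites in either line, against 1.73% of all genes in CAOV3 and 0.409% in TOV21G. An unadjusted p under 0.05 was found for 1 of the 9 in CAOV3 (12.9% of all genes) and 1 in TOV21G (9.17%). EdgeR and DESeq2 called 0 of them. The smallest adjusted p by limma was 0.312 for CD81 in TOV21G and 0.293 for OSBPL5 in CAOV3.

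The 17 measured neighbours of the other members had a median slope of -0.05, with 3 positive. Limma called 0 of the 19 tested, against 1.73% of all genes in CAOV3 and 0.409% in TOV21G. An unadjusted p under 0.05 was found for 3 in CAOV3, against 12.9% of all genes, and for 4 in TOV21G, against 9.17%. EdgeR and DESeq2 each called 2 in CAOV3, where they called 511 of 17616 and 507 of 13859 genes, and 0 in TOV21G. LTBP3, next to the MALAT1 locus, had the smallest adjusted p in TOV21G (limma, 0.147), and EPB41L1, near NORAD, in CAOV3 (limma, 0.0824).

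Other long non-coding RNAs more often had positive slopes. Of 16 with sufficient values, 12 had one, around a median of 0.07, where 29.8% of all genes and 58.1% of annotated long intergenic RNAs did. With TMM scaling these were 15 of 16, 42.8% and 70.5%. FTX, a non-coding RNA of the X inactivation centre, had the highest at 0.22, with 537, 744 and 651 normalised counts in the TOV21G controls and 784, 607 and 999.6 in the ascites libraries. SNHG14 was at 0.19 and HCG18 at 0.18, both below NEAT1 at 0.36. Limma called 0 of the 20 tested after ascites in either line, against 1.73% of all genes in CAOV3 and 0.409% in TOV21G. An unadjusted p under 0.05 was found for 3 in CAOV3 (12.9% of all genes) and 5 in TOV21G (9.17% of all genes). DESeq2 called 1 of the 20 in CAOV3, against 507 of 13859 genes, and edgeR 0. Their smallest adjusted p by limma was 0.167 for FIRRE in TOV21G and 0.166 for SNHG1 in CAOV3.

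Among 12 genes known for detained introns or for splicing regulation, 11 had a positive slope, around a median of 0.04. Of all genes 29.8% had a positive slope, around a median of -0.03. With TMM scaling these were 12 of 12 and 42.8%. NKTR was highest of the 12 at 0.30, with 1906, 3344 and 2540 normalised counts in the TOV21G controls and 3508, 2451 and 4392 in the ascites libraries. Its lowest library was control 1 and its highest ascites 3, as for the uneven RNAs. Limma, edgeR and DESeq2 called 0 of the 12 in either line. For limma this stood against 1.73% of all genes in CAOV3 and 0.409% in TOV21G. An unadjusted p under 0.05 was found for 0 of the 12 in CAOV3 (12.9% of all genes) and 2 in TOV21G (9.17%). OGT, the O-GlcNAc transferase gene, had the smallest adjusted p in TOV21G (limma, 0.424) and a slope of 0.10, and LUC7L, a splicing factor gene, in CAOV3 (limma, 0.476).

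Mitochondrially encoded messenger RNAs moved the opposite way to KCNQ1OT1. Of 13, 12 had negative slopes, around a median of -0.27, and the exception was MT-ND6 at 0.11, the only one of the 13 encoded on the light strand. Their share of all normalised counts was 1.45%, 1.19% and 1.59% in the TOV21G controls and 1.07%, 1.82% and 0.929% in the ascites libraries. The share was lowest in ascites 3, where the uneven RNAs were highest, and highest in ascites 2, where they were low, but it was not highest in control 1. In CAOV3 the share was 1.57% to 2.06%. Limma, edgeR and DESeq2 called 0 of the 13 after ascites in either line. For limma this stood against 1.73% of all genes in CAOV3 and 0.409% in TOV21G. An unadjusted p under 0.05 was found for 1 of the 13 in TOV21G (9.17% of all genes) and 0 in CAOV3 (12.9%). The smallest adjusted p by limma was 0.452 for MT-ND6 in TOV21G and 0.609 for MT-ND3 in CAOV3. Their part in the KCNQ1OT1 differences was not tested.

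**Figure D5:**
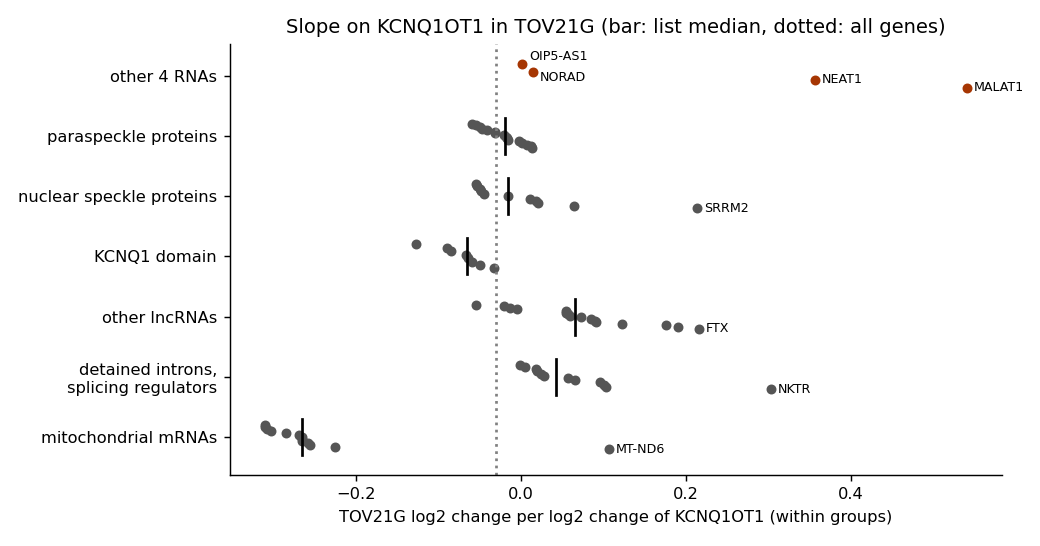
Slope of log2(value + 1) on that of KCNQ1OT1 within the TOV21G groups (horizontal axis) for the other 4 RNAs and the genes of 6 lists (points), with each list's median as a bar and the median of all genes as a dotted line. MALAT1 at 0.54 and NEAT1 at 0.36 lie farthest right, and mitochondrial messenger RNAs lie at the left with a median of -0.27.

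Length and annotated type went with the slope. By type, the median slope was -0.03 in protein-coding genes (27.2% positive) and -0.04 in processed pseudogenes (27.9%). It was 0.0071 in antisense RNAs (53.2%), 0.02 in long intergenic RNAs (58.1%) and 0.18 in sense intronic RNAs (81.8%). Protein-coding genes were divided by exon length into 4 groups of nearly equal number. The shortest, up to 3434 bases, had a median slope of -0.06, with 9.33% positive, and the following groups had medians of -0.04, -0.03 and 0.01. In the longest group, from 7685 bases, 57.8% were positive. With TMM scaling the medians were -0.04, -0.02, -0.0045 and 0.03, and 16.2% of the shortest and 73.1% of the longest group were positive. By the same measure, the union of annotated exons, KCNQ1OT1 has 91667 bases, NEAT1 22767, OIP5-AS1 12673, MALAT1 8829 and NORAD 5339. The longest runs of A within the transcripts, where a primer of T bases could bind, were 29 bases in KCNQ1OT1 and in OIP5-AS1, 22 in NEAT1, 13 in MALAT1 and 10 in NORAD. How the libraries were primed is not given in the sources used here, and a part of length or priming in these differences was not tested.

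The genes most like KCNQ1OT1 were found over the 12 libraries by the root mean square difference of group-centred log2 values, where the pattern of KCNQ1OT1 has a size of 0.796. The nearest 5 of 12375 were AL136164.3 at 0.140, IFNE at 0.201, AC027290.2 at 0.221, LINC00342 at 0.236 and Z83843.1 at 0.318. MALAT1 ranked 11 at 0.374, NEAT1 60 at 0.516, NORAD 2601 at 0.786 and OIP5-AS1 3125 at 0.795. AL136164.3 (chr6:71386852-71390829, minus strand) had 22.8, 158 and 60.1 normalised counts in the TOV21G controls and 182, 57.5 and 313 in the ascites libraries. In CAOV3 it had at most 3.40. Genes entered this ranking by their TOV21G mean alone, so the place of AL136164.3 does not show a likeness in CAOV3. IFNE, an epithelial interferon gene (chr9:21480839-21482313, minus strand), had 24.9, 124 and 57.4 in the TOV21G controls and 132, 54.9 and 236 in the ascites libraries. Each reached its lowest TOV21G value in control 1 and its highest in ascites 3.

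Most of these genes lie inside or across another annotated gene. AL136164.3 overlaps LINC00472 and AL136164.2, IFNE overlaps MIR31HG, AC027290.2 (chr12:122870059-122888720) overlaps VPS37B and Z83843.1 (chrX:74209976-74213660) overlaps FTX, each on the same strand. Only LINC00342 (chr2:95807118-95816215) overlaps no other annotated gene, so reads from the longer gene could enter the counts of 4 of the 5. Among the nearest 100 genes 46 were protein-coding, as were 91.5% of all 12376, while 13 were long intergenic RNAs (1.70% of all) and 13 transcribed unprocessed pseudogenes (1.09% of all). The genes closest to the mirrored pattern were MTCO1P12 at 0.488, MTATP6P1 at 0.566 and MT-ATP6 at 0.568, which are a mitochondrial gene and nuclear copies of mitochondrial genes whose reads could be shared.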

How the data were processed

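The deposited files give, for each of 12 libraries, 1 value per gene for 19251 genes, a signal that is never negative and is normalised by the authors. Trim Galore, cutadapt, STAR, HTSeq and DESeq are named by the submitters' processing notes, with no versions; genome build, annotation, strand and library kit are not given in the sources used here. Each library has a smallest step, and 100% of its values divided by that step gave whole reads (within 0.05 reads); these recovered reads served edgeR and DESeq2. Symbols came from a name table for 17030 genes and GENCODE release 29 for 2193 more.

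The main test was limma 3.58.1 (R 4.3.3; eBayes with trend) on log2(value + 1), because the values are not raw counts, for which edgeR had been planned, with all 12 libraries in 1 fit of 4 group means. Genes with a value of at least 10 in at least 3 libraries were tested (17616). P-values are two-sided, adjusted by Benjamini-Hochberg per comparison, and called under 0.05. Fold changes on this scale are understated for low genes. edgeR 4.0.16 and DESeq2 1.42.0 on the recovered reads, other pseudocounts, filters, scalings, weights, a replicate block and fits leaving out libraries were alternatives. The limma script was tested on simulated data. Replicate pairs differed by more than read sampling (chi-square per degree of freedom 1.81 to 22.6). Slopes and likeness used genes with a mean of at least 50 over the TOV21G libraries. Named genes were the 5 RNAs, the 5 genes nearest to KCNQ1OT1 and the 3 nearest to its mirror image, and from each list those with the smallest adjusted p or a background role; SON, NKTR, FTX, SNHG14, HCG18, CDKN1C, PHLDA2 and COL1A2 were chosen after their values were seen. The members, the lists and the tests were chosen with earlier results of these data known. Some genes and 1 sequence of these sets are not reported here.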

Additional observations from a re-analysis of the deposited data

How the results depend on the processing

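Over all results and alternatives, 544 values kept their direction and side of the threshold, or for counts and SDs stayed near the reported value; 45 moved, 8 reversed, 5 gained and 8 lost a call. The number of genes called after ascites in CAOV3 (305) was 511 with edgeR, 507 with DESeq2, 1295 with the line fitted alone and 799 with library weights. In TOV21G (72, of which 25 higher and 47 lower) they were 114 with edgeR (51 higher, 63 lower), 151 with DESeq2, 22 alone and 3390 with weights, and for the difference between the lines (96) they were 151 with TMM scaling, 148 with edgeR, 210 with DESeq2 and 1794 with weights. Calls gained with weights were KCNQ1OT1 at 1.55 and 1.74 (difference between lines), MALAT1 at 0.71 and NEAT1 at 0.51, and OIP5-AS1 was called at -0.12 in CAOV3 fitted alone. With TMM the SD of NORAD in TOV21G was 0.0537. KCNQ1OT1 between the controls was -1.19 with DESeq2. The causes were not tested.

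The replicate numbers showed no common pairing. Deviations from the group mean of same-numbered libraries correlated across genes at -0.05, 0.05 and 0.02 in CAOV3 and -0.14, -0.43 and 0.03 in TOV21G. Differently numbered TOV21G libraries ran from -0.35 (control 1 with ascites 3) to 0.44 (control 1 with ascites 2), with 0.35 for control 2 with ascites 3. Deviations within a group of 3 depend on each other, so these values cannot tell whether samples were paired. With the number as a replicate block, the calls numbered 116 after ascites in CAOV3, 13 after ascites in TOV21G and 9 for the response difference. The 5 RNAs were not among them. Between the controls that fit gave -2.20 for KCNQ1OT1 and -0.22 for MALAT1. These values depend on which replicate number is taken as the reference, so they do not compare the control groups as wholes.

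Leaving out 1 library gave 162 (without CAOV3 ascites 2) to 345 calls in CAOV3 (192, 176, 189 and 200 without its control 1, control 3, ascites 1 and ascites 3), 24 (without TOV21G control 3) to 137 (without TOV21G ascites 2) in TOV21G, 35 (without CAOV3 ascites 1) to 147 (without TOV21G ascites 2) for the difference (39 to 62 also without CAOV3 control 1, 2 or 3 or ascites 2 or 3, or TOV21G control 3 or ascites 1 or 3) and 13992 to 14539 between the controls. The TOV21G count was also 47, 44, 39, 40 and 39 without CAOV3 ascites 1, CAOV3 ascites 3, and TOV21G control 1, ascites 1 and ascites 3. SDs ranged in CAOV3 from 0.0933 to 0.186 for KCNQ1OT1, 0.0520 to 0.106 for MALAT1, 0.0183 to 0.0408 for NEAT1, 0.0251 to 0.0385 for OIP5-AS1 and 0.00808 to 0.0525 for NORAD, and in TOV21G from 1.21 to 1.58, 0.637 to 0.864, 0.429 to 0.566, 0.0314 to 0.0499 and 0.00666 to 0.0354. MALAT1 changed sign in CAOV3 (-0.015, without ascites 2, to 0.099) and between controls (-0.18 to 0.49), and NEAT1 between controls (-0.44 to 0.074). In TOV21G MALAT1 ran from 0.32 to 1.14, and its difference between the lines from 0.29 to 1.11. KCNQ1OT1 between controls ran from -2.32 to -0.94.

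Alternatives chosen after seeing the data left out both TOV21G control 1 and ascites 3, or used the KCNQ1OT1 level as a covariate. Without both libraries MALAT1 after ascites in TOV21G was -0.011 and its difference between the lines -0.045, NEAT1 between controls was 0.074, KCNQ1OT1 between controls -0.94, the SD of NORAD 0.00332 and the count for the difference between the lines 57. With the covariate MALAT1 was -0.011.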
